A study of Mus with 8 samples.

Results

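Lin-Sca1+Kit+ cells (LSK), a sorted fraction rich in blood stem cells and early progenitors, were compared between mice of age P14 (14 days) and newborn mice (P0), all labelled Ifnar-/-. Cells were the barcodes with at least 7500 gene UMI and at most 10% of UMI in mitochondrial genes. This kept 4387 cells at P14 and 3471 at P0, or 7858 of the 35549 cells that the same rule kept in the 8 libraries of the series. A UMI is a molecular tag that marks 1 captured transcript.

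The series counted RNA and 10 antibody tags in the same single cells (CITE-seq) of Lin-Kit+ (LK) and LSK fractions, of Ifnar+/- and Ifnar-/- mice, at P0 and P14. There was 1 library per combination. The ages are therefore described without replicate errors and without tests. The labels name no organ, write Ifnar without a number, and do not say how many mice entered a library or how the allele was made. Both Ifnar-/- LSK libraries are therefore known only by age and genotype, and the Ifnar+/- LSK pair is given beside them as the other genotype.

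The receptor for type I interferons is made of 2 chains, encoded by Ifnar1 and Ifnar2. Binding of interferon activates JAK kinases and STAT transcription factors, which switch on antiviral and antigen-presentation genes in most cells, blood stem cells included. Around birth, blood stem cells move from the liver to the bone marrow and exchange a fetal gene programme, led by Lin28b and its partners, for an adult one that makes more lymphocytes with Dntt. Dntt encodes terminal deoxynucleotidyl transferase, which adds bases at the joints of antigen-receptor genes.

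The P0 library held 136311830 gene UMI (median 36534 per cell) and the P14 library 124869618 (median 25647). Median mitochondrial UMI was 4.21% at P0 and 3.76% at P14, and the libraries shared 6 cell barcodes. Of the cells that could be assigned by sex-linked transcripts, 26.0% at P0 and 31.7% at P14 were male, so both libraries mixed the sexes. In the Ifnar+/- LSK pair the male shares were 30.2% at P0 and 55.3% at P14. The fraction's defining genes were read first. Ly6a, which encodes Sca1, had 30.8 CPM (UMI scaled to 1e6 gene UMI of the library) at P0 and 31.4 at P14. Kit, the stem cell factor receptor, had 193 and 231 CPM. After each cell was thinned to 7500 UMI, 21.2% of P0 cells and 21.5% of P14 cells had a Ly6a UMI (58.0% and 47.5% unthinned). Among erythroid-gene cells of the LK Ifnar-/- libraries, which should lack it, the shares were 0% of 304 cells at P0 and 0.149% of 671 at P14. These reference cells had at least 10 UMI of Klf1, Gata1, Car1 and Epor after thinning, and median depths of 45970.5 and 46215 UMI. As cells of other libraries, they do not measure RNA from outside the cell in LSK barcodes. Markers of other cells were low. Summed over 10 macrophage genes the level was 10.9 CPM at P0 and 11.0 at P14, of which Cd68 made up 9.54 and 6.21. Of the 9 measured, 5 were at least 2-fold higher at P14 (2.69% of all genes were) and 1, Marco with 18 and 2 UMI, lower (7.02%). Of the 9, 7 met the minimum of 50 UMI in 1 library set for all genes, and Marco did not. The median log2 ratio was 2.0, or 0.15 with 5 CPM added to each level. The higher genes had 0.745 to 1.11 CPM at P14. These were C1qa (2.73), C1qb (2.06), C1qc (3.17), Vcam1 (2.001) and Cd163 (1 and 138 UMI). In cells with Procr and Mecom the list had a median of 2.74 over the 5 genes measured there, which were C1qa, C1qb, C1qc, Vcam1 and Cd68. The part of macrophage RNA in other values was not tested. Over 14 genes of endothelium and stroma the level was 107 and 91.8 CPM. The 14 B and T cell genes summed to 49.3 and 100.6 CPM, and 2 of them had no UMI at P0 and 3 none at P14.

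The P0 library stood apart in 3 ways. It held mast cell transcripts: Cma1 (mast cell chymase) had 91.3 CPM at P0 and 0.0641 at P14, and Tpsb2 (mast cell tryptase) 61.8 and 0.0320. In the Ifnar+/- LSK pair Cma1 had 4.56 and 3.12 CPM. Thinned cells with at least 5 UMI of the pair numbered 31 at P0 and 0 at P14. It also had 1015 barcodes with 2000 to 7500 gene UMI and at most 10% mitochondrial UMI, against 59 at P14 and 29 and 26 in the Ifnar+/- pair. Its share of cells with UMI of both Procr and Mecom, genes of stem cells, was 24.8%, against 12.9% at P14 and 10.6% and 12.1% in the Ifnar+/- pair. With an alternative chosen after seeing the data, without the mast-gene cells and 6 cells rich in neutrophil granule transcripts, the log2 ratio of Cma1 was -3.79 in place of -10.39, and that of Tpsb2 -4.21 in place of -10.74.

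Of 14044 genes with at least 50 UMI in 1 of the 2 libraries, 378 were at least 2-fold higher at P14 (2.69% of genes) and 986 at least 2-fold lower (7.02%). The median log2 ratio of all of them was -0.06. Of the genes past 2-fold, 80 of the higher and 164 of the lower reached 10 CPM in their higher library. For 14 higher and 43 lower genes, 5 cells held at least 50% of the UMI in that library. Without the mast-gene and granule-gene cells the counts were 388 and 955. Ratios carry 95% intervals from counts (exact Poisson, binomial or Clopper-Pearson), which cover counting error only and say nothing of the spread between mice.

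The Ifnar+/- LSK pair shares no library with this comparison. There 515 genes were at least 2-fold higher at P14 (3.67%) and 586 lower (4.18%) of 14015. Both pairs had 196 higher genes in common, which is 51.9% of the Ifnar-/- list and 38.1% of the Ifnar+/- list. The lower lists shared 436 genes, 44.2% of the Ifnar-/- list and 74.4% of the Ifnar+/- list. Whether the ages differ more in 1 genotype was not tested, since each group had 1 library.

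**Figure D1:**
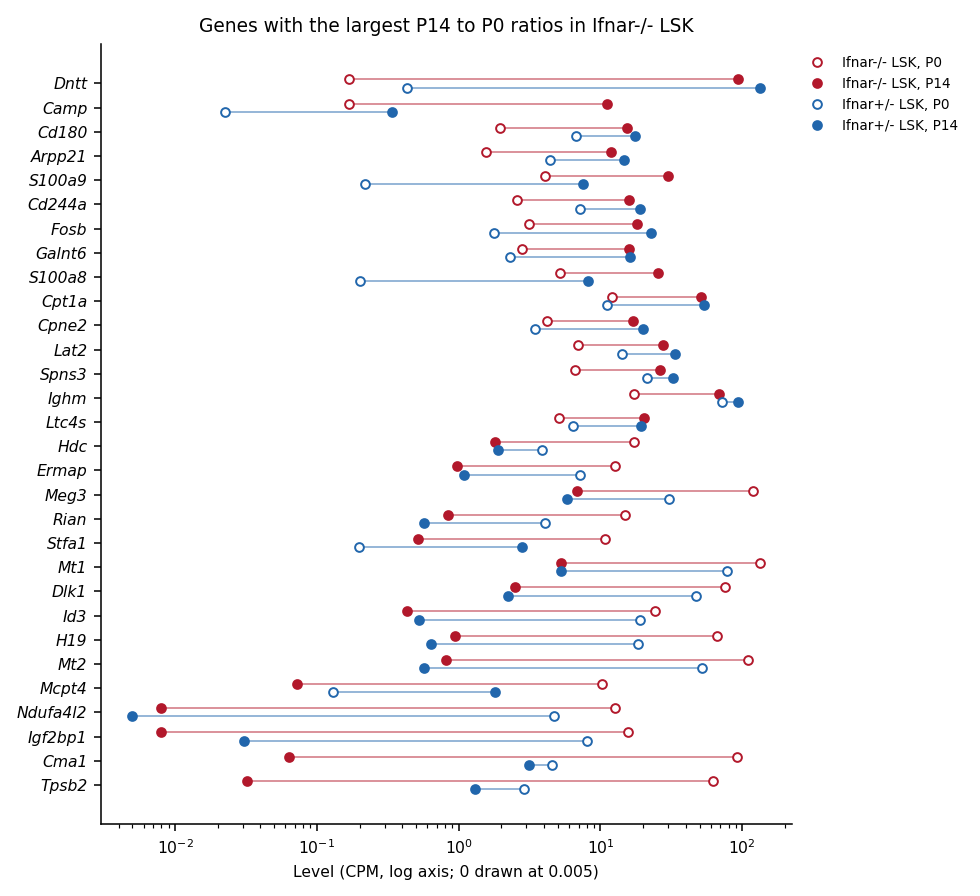
Level (CPM, log axis) of the 15 higher and 15 lower genes with the largest ratios, at P0 (open) and P14 (filled), in Ifnar-/- LSK (red) and Ifnar+/- LSK (blue). Dntt goes from 0.169 to 93.9 CPM in Ifnar-/- LSK, and Cma1 and Tpsb2 have 91.3 and 61.8 CPM in the P0 Ifnar-/- library and at most 4.56 in the other 3.

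Dntt had the largest ratio of the higher genes. Its locus is at chromosome 19: 41029275 to 41059525 (GRCm38, RefSeq). It had 0.169 CPM at P0 and 93.9 CPM at P14, a log2 ratio of 9.09 (8.53 to 9.78). In the thinned cells 1 of 3471 had a Dntt UMI at P0 and 803 of 4387 at P14, or 18.3% (17.2 to 19.5), and unthinned 0.259% and 29.1%. The P14 reference cells had 0.149%. In the Ifnar+/- pair Dntt had 0.434 and 134 CPM, a log2 ratio of 8.26.

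Among P14 cells, those with Dntt differed in other transcripts from those without. An Ighm UMI was found in 66.0% of the 803 Dntt cells and in 16.4% of the other 3584. Flt3, the receptor of multipotent and lymphoid progenitors, was found in 82.9% and 56.2%. Il7r, the interleukin 7 receptor, was found in 8.72% and 0.363%. Mpo, of the neutrophil and monocyte list, was found in 41.1% and 30.4%. Mecom, a stem cell transcription factor, went the other way with 24.9% and 51.0%. These shares describe cells of 1 library and were not tested.

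The lymphoid priming list had 34 measured members. At P14, 11 of the 34 were higher by 2-fold or more and 4 were lower, beside 2.69% and 7.02% of all genes. The median log2 ratio was 0.20 beside -0.06 for all genes. Beside Dntt, the antibody heavy chain gene Ighm had 17.2 CPM at P0 and 68.7 at P14 (log2 ratio 1.997). The cytokine subunit gene Il12a had 24.8 and 69.0 CPM (1.47), and the surface glycoprotein gene Cd52 74.8 and 169 CPM (1.18). The chemokine receptor genes were higher at P14 too, with Ccr9 at 4.73 and 11.2 CPM and Ccr7 at 0.734 and 2.18 CPM. The recombinase genes Rag1 (log2 ratio 1.17) and Rag2 (1.67) and Il7r (1.55) were also higher, all from levels near 1 or 2 CPM at P0. At P0, 5 cells held 50.4% of Rag1 UMI. Ly6d, a marker of early B-lineage cells, had 20 UMI at P0 and 266 at P14. Thinned cells with an Il7r UMI were 1.18% at P0 and 1.89% at P14, and with each cell weighted equally the log2 ratio of Il7r was 0.842.

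The 4 lower members were genes of committed B cell precursors: Igll1 (3.58 and 0.0481 CPM), Vpreb1 (5.201 and 1.39), Cd79a (3.50 and 1.26) and Pax5 (0.675 and 0.136). In the P0 library 5 cells held 48.1% to 67.4% of the UMI of each. They were lower at P14 in the Ifnar+/- pair as well, with log2 ratios from -5.96 to -1.52. Of the higher members, Il7r had a log2 ratio of -0.09 there, Ccr9 -0.46 and Ighm 0.39. The P0 libraries differed by genotype in these genes: Ighm had 71.5 CPM in P0 Ifnar+/- against 17.2 in P0 Ifnar-/-, Il7r 10.7 against 2.24 and Ccr9 15.7 against 4.73.

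Among genes with at least 10 CPM at P14, leaving aside neutrophil granule genes and Gm and Rik gene models, the next largest ratios belonged to genes of mixed function. Cd180, a relative of the Toll-like receptors, had 1.97 CPM at P0 and 15.4 at P14 (log2 ratio 2.97). Arpp21, an RNA-binding protein gene, had 1.56 and 11.9 CPM (2.93), and Cd244a, which encodes a receptor for CD48, 2.57 and 16.0 CPM (2.64). The transcription factor gene Fosb had 3.13 and 17.99 CPM (2.52). Galnt6, a glycosyltransferase gene, had 2.81 and 15.9 CPM (2.50). Cpt1a, the enzyme that admits long-chain fatty acids to mitochondria, had 12.1 and 50.8 CPM (2.07), and its thinned share of cells was 9.25% at P0 and 31.1% at P14. The reference cells changed in Cpt1a as well, with 3.29% and 22.1%. Cpne2, Lat2, Spns3 and Ltc4s followed with log2 ratios from 1.995 to 2.01. All of these were higher at P14 in the Ifnar+/- pair, Fosb by a log2 ratio of 3.66 and Cpt1a by 2.26.

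Of 23 neutrophil and monocyte list genes, 7 were at least 2-fold higher and 2 lower, beside 2.69% and 7.02% of all genes. Their median log2 ratio was -0.02. The neutrophil granule genes among the largest ratios had most of their P14 UMI in few cells. Camp had 0.169 CPM at P0 and 11.2 at P14, S100a8 5.17 and 25.4, and S100a9 4.06 and 29.8. In the P14 library 5 cells held 92.5%, 91.5% and 91.4% of their UMI. In free RNA, read from barcodes with at most 100 gene UMI, the 3 genes had 152, 281 and 289 CPM at P14. Without the mast-gene and granule-gene cells the log2 ratio of Camp was 3.53 in place of 6.02, and that of S100a9 was 1.94 in place of 2.88. Stfa1, lower at P14 with a log2 ratio of -4.35, had 96.5% of its P0 UMI in 5 cells, and its ratio without the mast-gene and granule-gene cells was -1.56.

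By the difference in CPM, the higher genes were abundant ones, and 8 of the 10 were under 2-fold. The nuclear noncoding RNA Malat1 had 5071 CPM at P0 and 7378 at P14 (log2 ratio 0.54). The histone genes Hist1h1b (364 and 812 CPM) and Hist1h2ap (894 and 1170.2 CPM), the receptor-associated protein gene Ramp1 (256 and 498 CPM) and Plac8 (127 and 365 CPM) were among the 10. Plac8 was lower at P14 in the Ifnar+/- pair, with 677 and 504 CPM. The 10 lower genes were Hbb-bt, Ifitm1, Eef1a1 (7748 and 7014 CPM), Npm1 (2596 and 2050.0 CPM), H3f3b, Hsp90ab1 (3628 and 3312 CPM), Tubb5, Gapdh, Hnrnpa0 and Eef2.

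The fetal programme list had 15 measured members, of which 12 were at least 2-fold lower at P14 and 1 higher, beside 7.02% and 2.69% of all genes. Its median log2 ratio was -2.73, beside -0.06 for all genes, and -2.29 in the Ifnar+/- pair. The higher member, the embryonic globin gene Hbb-y, had 6 UMI at P0 and 24 at P14. The list was chosen with earlier results of these data known, so its direction is a description.

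Igf2bp1, an RNA-binding protein of fetal cells that is encoded at chromosome 11: 95957163 to 96005944, had 2146 UMI at P0 (15.7 CPM) and 1 UMI at P14. The log2 ratio was -10.36, with an interval from -16.25 to -8.46. A UMI was found in 36.5% of P0 cells. After thinning, 10.7% of P0 cells and 0 of 4387 P14 cells had one. By the floor of 3 counts this allows a share of cells with a UMI at that depth of up to 0.0684%. Unthinned, 0.0228% of P14 cells had one. Its relatives were lower by less: Igf2bp2 had 80.2 and 19.3 CPM (log2 ratio -2.06) and Igf2bp3 66.9 and 49.5 CPM (-0.44). Lin28b, which blocks maturation of let-7 microRNAs, had 24.1 and 7.74 CPM (-1.64), and Hmga2, a chromatin protein gene and let-7 target, 331 and 220.2 CPM (-0.59). Arid3a, a B-lineage transcription factor gene, had 60.1 and 27.1 CPM (-1.15). For these 6 genes the ages kept the same order in the Ifnar+/- pair, where the log2 ratios ran from -7.87 for Igf2bp1 to -0.53 for Hmga2.

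Imprinted genes, which are read from 1 parental copy, made up much of the list. On chromosome 7, H19 (142575530 to 142578146) had 66.3 CPM at P0 and 0.945 at P14, Igf2 (142650768 to 142666816) 5.82 and 0.152, and the cell cycle inhibitor gene Cdkn1c (143458339 to 143461059) 80.8 and 19.8. On chromosome 12, the Notch-family ligand gene Dlk1 (109452485 to 109463336) had 75.05 and 2.51 CPM and the noncoding RNA Meg3 (109540996 to 109571729) 118 and 6.86. Its neighbour Rian (109603945 to 109661716), not on the list, had 14.8 and 0.841 CPM. Plagl1 and Peg3, imprinted transcription factor genes, had log2 ratios of -3.26 and -2.73. Mest, also imprinted, had only 105 UMI at P0, and 5 cells held 81.9% of them.

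H19, Dlk1 and Meg3 were found in many cells at P0. After thinning, H19 was found in 30.2% of P0 cells and 0.615% of P14 cells, Dlk1 in 34.1% and 1.66%, and Meg3 in 34.7% and 3.19% (60.1% and 1.94%, 66.1% and 5.54%, and 51.9% and 4.63% unthinned). The P0 reference cells had 1.64%, 6.25% and 0%. The Ifnar+/- P0 library held less of the same RNAs: 18.5 CPM of H19, 47.2 of Dlk1 and 30.5 of Meg3. At P14 the genotypes were closer, with 0.635, 2.22 and 5.82 CPM in Ifnar+/-.

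**Figure D2:**
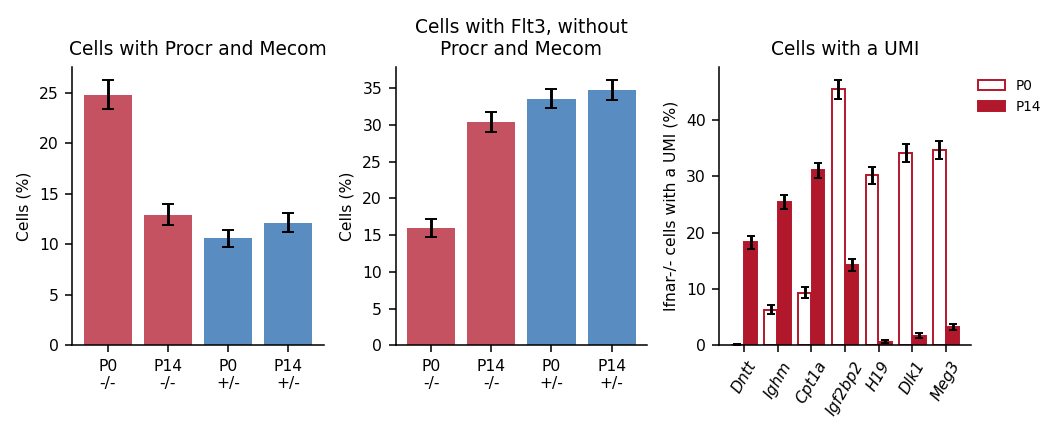
Share of cells (%) with UMI of both Procr and Mecom, share with Flt3 and neither of these, and share of Ifnar-/- cells with a UMI of 7 genes, all after thinning each cell to 7500 UMI, with exact 95% counting intervals. The P0 Ifnar-/- library has 24.8% of cells in the left panel and 15.9% in the middle one, apart from the other 3 LSK libraries.

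Part of the stem cell list was lower at P14 in the Ifnar-/- pair. Of 36 measured members, 8 were at least 2-fold lower and 0 higher, beside 7.02% and 2.69% of all genes, and 27 had a ratio below 0. The median log2 ratio was -0.59 (-0.06 for all genes), and 0.01 in the Ifnar+/- pair, where 2 were at least 2-fold lower. The interferon-induced membrane protein gene Ifitm1 had 1397 CPM at P0 and 560.5 at P14 (log2 ratio -1.32), the adhesion molecule gene Esam 49.1 and 14.4 (-1.77) and Fgd5, a stem cell reporter gene, 38.5 and 12.2 (-1.65). Hoxb5 (-2.04), Tgm2 (-1.81), Vwf (-1.36), the transcription regulator gene Mllt3 (-1.07) and Ctnnal1 (-1.04) were the others. The receptor gene Procr was just under 2-fold lower, with 53.8 and 27.3 CPM (-0.98), and the transcription factor gene Hlf had 477 and 407 CPM (-0.23). Mllt3 and Procr were level in the Ifnar+/- pair, with log2 ratios of -0.04 and -0.05.

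The share of cells with Procr and Mecom transcripts differed between the ages. Both genes are members of the stem cell list, so this share is not independent of their lower levels at P14. Cells with UMI of both Procr and Mecom were 861 of 3471 at P0, or 24.8% (23.4 to 26.3), and 567 of 4387 at P14, or 12.9% (11.9 to 14.0). Cells with Flt3 and neither of these were 15.9% at P0 (14.7 to 17.2) and 30.3% at P14 (29.0 to 31.7). The corresponding shares of the Ifnar+/- pair were 10.6% and 12.1%, and 33.6% and 34.8%. The part of these shares in the ratios of other genes was read by taking the ratios within each set of cells, leaving out its defining genes.

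Within cells with Procr and Mecom, 188 of 11743 genes were at least 2-fold higher (1.60%) and 305 lower (2.60%). The stem cell list then had a median of -0.23 over 34 members, with 0 at least 2-fold lower. Esam was at -0.95, Fgd5 at -0.94, Ifitm1 at -0.60, Mllt3 at -0.39 and Hlf at 0.19 there. In Flt3 cells the list had a median of -0.36, and 7 of 33 members were at least 2-fold lower (3.05% of all genes in these cells were), among them Tgm2 (-2.48), Hoxb5 (-2.43), Esam (-1.95), Fgd5 (-1.93) and Ifitm1 (-1.57). Ly6a had 39.9 CPM at P0 and 63.4 at P14 in cells with Procr and Mecom (log2 ratio 0.67), although it was level over the whole library. Of the genes lower in the library and with at least 50 UMI in these cells, 256 of 501 were also 2-fold lower there (51.1%), and 101 of 127 of the higher genes were also higher (79.5%). In Flt3 cells 294 of 341 were also lower (86.2%) and 199 of 257 also higher (77.4%). The library sums include these same cells, so the overlap is partly built in. The sets of cells also differ in which genes reached 50 UMI.

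The fetal programme was lower within both sets of cells. In cells with Procr and Mecom its median was -1.52, with 10 of 13 members at least 2-fold lower (2.6% of all genes in these cells were). In Flt3 cells it was -3.05 with 10 of 12 lower, beside 3.05% of all genes. Igf2bp1 had 524 and 0 UMI in the first and 289 and 0 UMI in the second. H19 was at 126 and 3.11 CPM in cells with Procr and Mecom and at 21.2 and 0.243 in Flt3 cells. Meg3 kept 38.6 CPM at P14 in cells with Procr and Mecom, from 224 at P0, and 0.315 CPM in Flt3 cells, from 32.7.

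In Flt3 cells 291 of 11815 genes were at least 2-fold higher (2.46%) and 360 lower (3.05%). After thinning, Dntt was found in 0 of 553 such cells at P0 (3 UMI before thinning), which by the same floor allows a share of up to 0.542% at that depth, and in 461 of 1331 at P14 (34.6%). Among cells with Procr and Mecom it was found in 0 of 861 and 25 of 567 (4.41%). Ighm remained higher in both sets, with log2 ratios of 1.46 in Flt3 cells and 2.06 in cells with Procr and Mecom, and so did Cpt1a (2.10 and 2.04), Cd180 (2.28 and 2.99) and Galnt6 (2.72 and 2.18). Others lost the 2-fold difference in 1 or both sets: Ccr9 was at 0.39 in Flt3 cells and -0.24 in cells with Procr and Mecom, Cd52 at 0.77 and 1.18, and Il12a at 1.31 and 0.82. Of the lymphoid priming list, 11 of 33 members were at least 2-fold higher in Flt3 cells and 4 of 24 in cells with Procr and Mecom. Of the neutrophil and monocyte list, 11 of 22 and 6 of 17 were higher by as much in the same sets. Of all genes there, 2.46% and 1.60% were. The medians were 0.33 and 0.11 for the lymphoid priming list and 0.71 and -0.16 for the neutrophil and monocyte list. Ctsg, a neutrophil serine protease gene, had 2.87 CPM at P0 and 67.3 at P14 in Flt3 cells (log2 ratio 4.54), and 18.7 and 52.0 over the library, where 5 cells held 62.7% of its P0 UMI. S100a9 was at 2.50 in Flt3 cells (10 and 100 UMI) and 4.73 in cells with Procr and Mecom (7 and 85 UMI). S100a8 was at 2.25 and 4.82 there. The part of free RNA in these values was not tested.

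The targeted receptor was still transcribed. Ifnar1 (chromosome 16: 91485032 to 91510523) had 29.4 CPM at P0 and 33.4 at P14 in Ifnar-/- LSK and 31.2 and 36.9 in Ifnar+/- LSK. Ifnar2 had 87.0 and 97.4 CPM in Ifnar-/- LSK. The libraries count the 3′ ends of transcripts and the labels do not say which part of the gene is lost, so these levels do not check the genotype.

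Most interferon list genes were somewhat higher at P14 in Ifnar-/- LSK. Of 62 measured members, 48 had a ratio above 0, 8 were higher by 2-fold or more (2.69% of all genes were) and 1 lower (7.02%). Of the 62, 56 met the minimum of 50 UMI in 1 library set for all genes. Among the 8, Zbp1 (16 and 41 UMI) and Phf11d (8 and 42 UMI) did not. The median log2 ratio was 0.30, beside -0.06 for all genes. In the Ifnar+/- pair the median of the same members was -0.58, with 11 above 0, 0 higher by 2-fold or more and 23 lower by as much. Of the 62, 37 were higher at P14 in Ifnar-/- and lower in Ifnar+/-, 11 were higher in both and 14 lower in both.

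The levels of the list show where the libraries lay. Summed over the list, Ifnar-/- LSK had 2769 CPM at P0 and 3162 at P14, and Ifnar+/- LSK 6753 and 4953. All 62 members were lower in Ifnar-/- than in Ifnar+/- at P0 (median log2 ratio of genotypes -1.49), and all 62 were at P14 (median -0.65). The 2 Ifnar-/- sums were both under the 2 Ifnar+/- sums, and the P14 libraries lay closer together than the P0 libraries.

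Several abundant members encode proteins of antigen presentation. The class I heavy chain genes H2-K1 and H2-D1, whose near-identical parts can share reads, had 158 and 249 CPM (log2 ratio 0.66) and 147 and 222 CPM (0.59). The immunoproteasome subunit gene Psmb8 had 205 and 320 CPM (0.64; at 0.02 in Ifnar+/-), and the light chain gene B2m 362 and 403 CPM (0.15). Other abundant members were higher at P14 by similar ratios, with Ly6e, a surface protein gene, at 249 and 303 CPM (0.28), the galectin gene Lgals9 at 149 and 188 (0.33) and Epsti1 at 54.8 and 74.0 (0.43). Nlrc5, the activator of class I genes, had 0.337 and 1.29 CPM (1.92). Sp100, a nuclear body protein gene, had 16.2 and 33.2 CPM (1.04; at 0.00 in Ifnar+/-). The membrane protein gene Ifitm3 was lower at P14 in both genotypes, with 489 and 295 CPM in Ifnar-/- and 1138 and 392 in Ifnar+/-.

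Several members that were abundant in Ifnar+/- were at low levels in Ifnar-/-. Rtp4 had 0.990 and 2.81 CPM (log2 ratio 1.502), against 117 and 31.0 CPM in Ifnar+/- (-1.91). Ifi27l2a had 2.09 and 6.51 CPM (1.64), against 85.4 and 32.8 (-1.38). The antiviral genes Ifit1 (1.26 in Ifnar-/- and -2.004 in Ifnar+/-), Zbp1 (1.46 and -1.23) and Phf11d (2.45 and -1.47) went the same 2 ways, from 8 to 152 UMI per Ifnar-/- library. For Ifit1, 5 cells held 57.2% of the P14 UMI. Oas1a was the member at least 2-fold lower in Ifnar-/-, with 1.12 and 0.408 CPM (-1.44).

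The interferon list kept its median within both sets of cells, at 0.34 over 56 members in cells with Procr and Mecom and 0.34 over 56 in Flt3 cells. Rtp4 was at 1.70 and 1.62 there, and H2-K1 at 0.78 and 0.56. Over the alternatives the median ran from 0.154 to 0.354. Of 16 genes that carry the signal or limit it, 0 were at least 2-fold higher and 1 lower, against 2.69% and 7.02% of all genes, with a median of 0.09. That gene was Socs3, a feedback inhibitor of cytokine receptors, with 9.58 and 2.09 CPM (-2.19). Irf1, a transcription factor gene of the pathway, had 22.0 and 37.4 CPM (0.76).

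**Figure D3:**
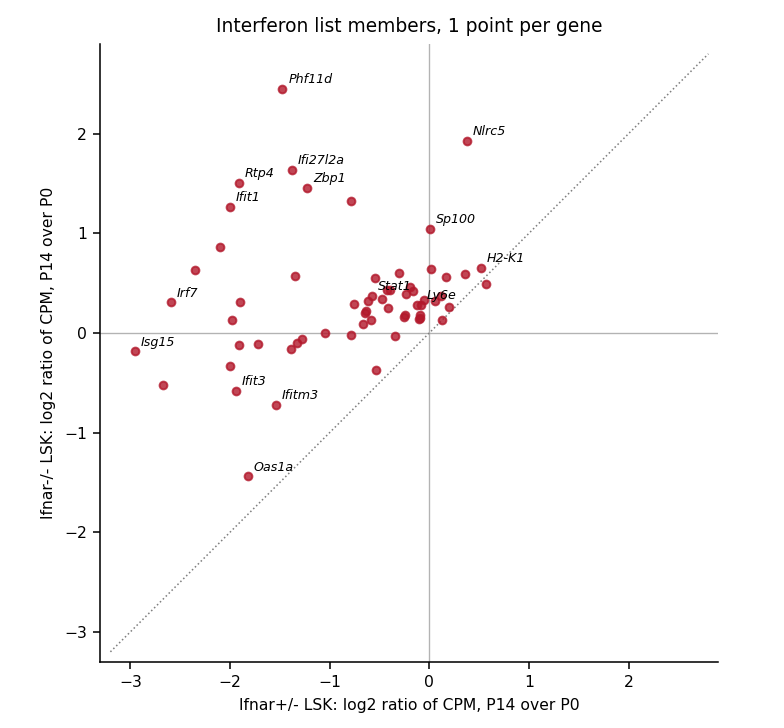
Log2 ratio of CPM, P14 over P0, of 62 interferon list members in Ifnar-/- LSK (vertical axis) against Ifnar+/- LSK (horizontal axis), with equal values on the dotted line. Of the points, 61 lie above that line and 37 lie in the upper left, higher at P14 in Ifnar-/- and lower in Ifnar+/-.

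The 7 genes of MHC class II presentation did not move together. H2-DMa (40.8 and 89.3 CPM) and the master regulator gene Ciita (0.418 and 1.21 CPM) were at least 2-fold higher at P14, while H2-Aa (5.29 and 1.59), H2-Eb1 (2.33 and 0.777) and Cd74 (18.1 and 8.59) were lower. At P0, 5 cells held 93.8% of H2-Aa and 92.7% of H2-Eb1 UMI. The direction of H2-Aa depended on the cells: H2-Aa was at 1.61 within cells with Procr and Mecom (19 and 25 UMI) and at -3.94 within Flt3 cells (358 and 39 UMI). The median of the list was 0.45 over all cells, 1.05 over 6 genes in the former and -0.20 over 7 in the latter. Over the alternatives the median over all cells ran from 0.197 to 0.54.

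Most genes of low oxygen and glycolysis had ratios below 0. Of 32 measured members 30 did, while 9 were at least 2-fold lower and 0 higher (7.02% and 2.69% of all genes). The median was -0.50, and -0.42 in the Ifnar+/- pair. Egln3, an oxygen sensor gene, had 61.4 and 14.3 CPM (log2 ratio -2.10), the glucose transporter genes Slc2a1 37.7 and 12.5 (-1.59) and Slc2a3 53.4 and 24.3 (-1.14), the glycolytic enzyme gene Aldoc 16.2 and 4.06 (-1.997) and the growth factor gene Vegfa 42.0 and 19.7 (-1.09). The more abundant enzyme genes Aldoa (-0.67), Tpi1 (-0.59), Pkm (-0.47), Ldha (-0.43) and Gapdh (-0.27) were lower by less. The list was at -0.45 in cells with Procr and Mecom and -0.56 in Flt3 cells.

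Ndufa4l2, a hypoxia-induced mitochondrial protein gene (chromosome 10: 127509274 to 127517154), was found in few cells. It had 1732 UMI in 70 cells at P0 and 1 UMI at P14, and its relative Ndufa4 had 688 and 965 CPM. Of the 70 cells, 75.7% had a UMI of Klf1 and 77.1% of Ermap, genes of red cell precursors, against 3.41% and 0.882% of the other P0 cells. Their median depth was 92095 UMI against 36347. Without the 5% of cells with the most UMI in each library the log2 ratio of Ndufa4l2 was -6.44 in place of -10.05, that of Ermap -1.09 in place of -3.70, and that of Klf1 0.289 in place of -2.75.

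The metallothionein genes Mt1 and Mt2 (chromosome 8: 94172618 to 94180327), which bind zinc and copper, had 133 and 109.9 CPM at P0 and 5.25 and 0.809 at P14. The log2 ratios were -4.66 and -7.08, and -3.89 and -6.51 in the Ifnar+/- pair. A UMI of Mt2 was found in 280 P0 cells and 14 P14 cells. In free RNA Mt2 had 168 CPM at P0 and 1.26 at P14. Klf1 was found in 25.7% of the P0 cells with Mt2 and in 3.04% of the others. Among the LK reference cells 92.4% had Mt2 at P0 and 43.2% at P14. The ratio of Mt1 without the 5% deepest cells was -2.28. In cells with Procr and Mecom Mt1 had 4.14 and 1.80 CPM. How far free RNA or cells of another lineage enter these values was not tested.

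Red cell and platelet genes were split. Of 24, 7 were at least 2-fold lower and 3 higher, against 7.02% and 2.69% of all genes, and the median log2 ratio was -0.35. The median was 0.0143 without the 5% of cells with the most UMI and 0.09 in cells with Procr and Mecom. The adult globin gene Hbb-bt had 1791 and 418 CPM (log2 ratio -2.10; 822 and 418 CPM in Ifnar+/-). It has near-identical copies whose reads may be split by the counting. Thinned cells with a Hbb-bt UMI were 79.9% at P0 and 46.3% at P14, and 6.58% and 5.37% of the reference cells had one, below the LSK share at both ages. In free RNA of the LSK libraries Hbb-bt had 1818 and 420.4 CPM, close to its levels in the cells. The reference cells come from other libraries, and the part of free RNA in the LSK values was not tested. Pf4, a platelet chemokine gene, was higher at P14 with 8.79 and 26.3 CPM (1.58), as were the platelet glycoprotein genes Gp5 (1.91) and Gp1bb (3.35, from 8 and 79 UMI).

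Single genes of signalling and of the cell cycle were far apart as well. Id3, an inhibitor of helix-loop-helix transcription factors, had 24.4 and 0.432 CPM (log2 ratio -5.80) and was found in 8.50% and 0.319% of thinned cells. The chemokine gene Ccl4 had 143 and 19.6 CPM (-2.87) and was found in 47.6% and 12.9%. Ccl4 is on the NF-kB list, where 12 of 15 members were within 2-fold and the median was -0.05. Id3 and Ccl4 were lower at P14 in Ifnar+/- LSK as well, with log2 ratios of -5.17 and -2.88. The cell cycle inhibitor gene Cdkn1a had 24.8 and 7.48 CPM (-1.73), while Cdkn2c was higher at P14, with 1.36 and 4.90 CPM (1.84). The list named for cell cycle inhibitors also holds Ccnd1, Ccnd2, Ccnd3, Cdk4 and Cdk6, genes of cyclins and their kinases, which are not inhibitors. Their log2 ratios ran from -0.20 for Cdk4 to 0.58 for Cdk6, and they enter its median. Of the 12 measured genes on this list, 2 were at least 2-fold lower and 1 higher. All genes had 7.02% and 2.69%, and the median of the list was -0.14. Of 29 immediate early genes, 5 were at least 2-fold lower (7.02% of all genes were), among them Egr1 (94.4 and 36.1 CPM) and Nr4a1 (15.8 and 4.22), and Fosb was the one higher. Their median was -0.49, beside -0.06 for all genes, and -0.01 in the Ifnar+/- pair. Over the alternatives the Ifnar-/- median ran from -0.676 to -0.255.

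**Figure D4:**
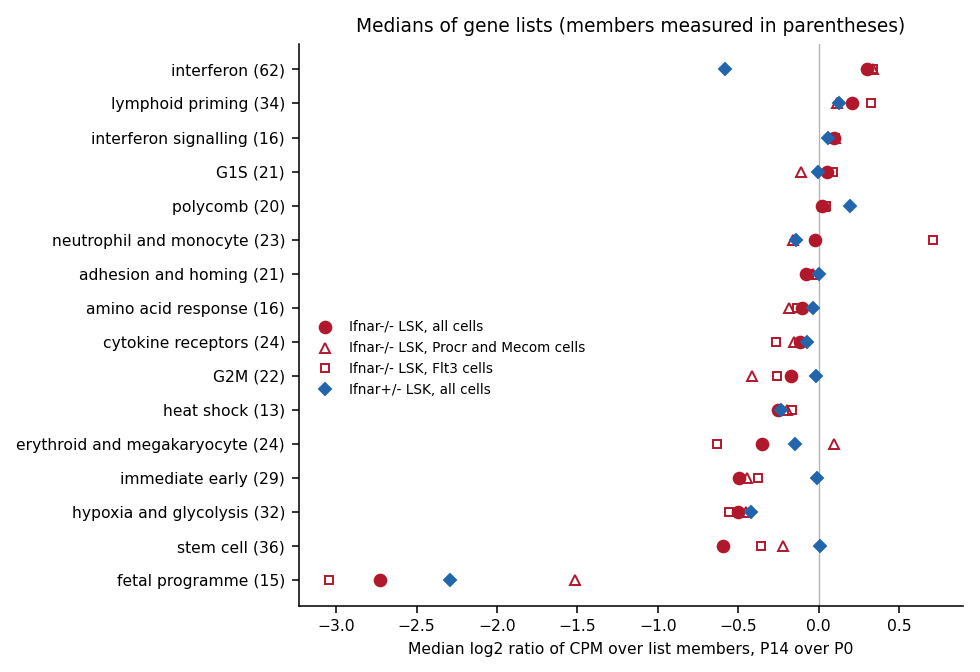
Median log2 ratio of CPM, P14 over P0, of 16 gene lists in all Ifnar-/- LSK cells (filled circles), in 2 sets of them (open symbols) and in Ifnar+/- LSK (blue diamonds). The interferon list is at 0.30 in Ifnar-/- and -0.58 in Ifnar+/-, and the fetal programme list is the lowest of these 16 in all 4 sets of points. The lists of MHC class II, metallothionein, NF-kB and cell cycle inhibitor genes are not plotted. Their Ifnar-/- medians were 0.45, -1.42, -0.05 and -0.14. Also not plotted are the hepatocyte, macrophage, mast and eosinophil, B and T, and endothelium and stroma lists.

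Fewer cells had G2M transcripts at P14, by an amount that depended on the cells and the setting. Thinned cells with at least 3 UMI of 22 G2M genes (genes of cells about to divide) were 58.4% at P14 (56.9 to 59.8) and 61.3% at P0 (59.7 to 62.9), a difference of -2.93 percentage points (-5.11 to -0.75). The difference in the Ifnar+/- pair was -8.53 points. With cells of at least 15000 UMI it was 1.38 points in Ifnar-/-, so its direction depends on the minimum depth. In 4 other settings it was -6.02 to -8.23 points. Within cells with Procr and Mecom the shares were 48.0% at P0 and 38.1% at P14, and within Flt3 cells 73.6% and 66.1%. None of the 22 G2M genes and none of 21 G1/S genes was 2-fold apart in the library, where few genes were (2.69% higher and 7.02% lower). The polycomb list, 20 genes of chromatin silencing complexes, had a median of 0.02 and 0 members 2-fold apart.

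Antibody tags were read as shares of the library's tag UMI, 23689503 at P0 and 28128748 at P14. Of 10 tags, 6 were at least 1.5-fold apart in share. Relative to gene UMI, CD150 (0.691 of its P0 value) and CD41 (0.810) were not, while CD135 (1.80) was. The tag named SA_PE, whose target the labels do not give, was higher, with 7.82% at P0 and 16.8% at P14. Lower at P14 were CD127 (0.531% and 0.125%), CD16_32 (1.61% and 0.629%), the CD201 tag (2.08% and 0.809%), CD150 (2.23% and 1.19%) and CD41 (0.381% and 0.238%). CD48, the most abundant, had 64.4% and 63.3%, CD34 4.13% and 4.31%, CD117 16.2% and 11.7% and CD135, the Flt3 protein, 0.605% and 0.842%.

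Tag and transcript agreed in direction for some proteins and not for others. CD201 is the protein of Procr and CD150 that of Slamf1, and for both the tag and the RNA were lower at P14 (Slamf1 had 8.91 and 6.01 CPM). CD127 is the protein of Il7r, and its median tag count per cell was 17 at P0 and 3 at P14 while Il7r RNA had 2.24 and 6.57 CPM. The 41 and 83 cells with an Il7r UMI after thinning had median CD127 counts of 60 and 49, and cells without had 17 and 3. CD41 (Itga2b, 3.83 and 6.96 CPM) and CD16_32 (Fcgr3 and Fcgr2b, together 4.20 and 6.61 CPM) likewise had less tag and more RNA. Of the latter, Fcgr3 was level (1.94 and 1.91 CPM). CD117, the Kit protein, had a lower share of tag UMI and median counts of 1003 and 672, while Kit RNA had 193 and 231 CPM. Counts per cell are not scaled to depth, and relative to gene UMI the CD117 tag was at 0.938 of its P0 value. The CD117 share in the Ifnar+/- pair was 11.4% and 11.3%. In the Ifnar+/- pair the CD127 share was 0.567% and 0.105%, CD16_32 1.46% and 0.642%, and SA_PE 8.97% and 20.1%. The CD150 share was 1.10% and 1.09% there, while its median count per cell was 21 and 9 (45 and 12 in Ifnar-/-). CD201 had 0.693% and 0.543%.

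Within cells with Procr and Mecom the median CD201 count was 173 at P0 and 93 at P14, and that of CD150 was 86 and 29. CD201 is the protein of Procr, which defines these cells, and the counts are not scaled to depth. The median depth of these cells was 30818 gene UMI at P0 and 18717 at P14. Tag counts in barcodes with few gene UMI also differed between the ages: CD127 made up 5.19% of tag UMI there at P0 and 1.25% at P14. The part of unbound tag or staining in these shares was not tested.

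**Figure D5:**
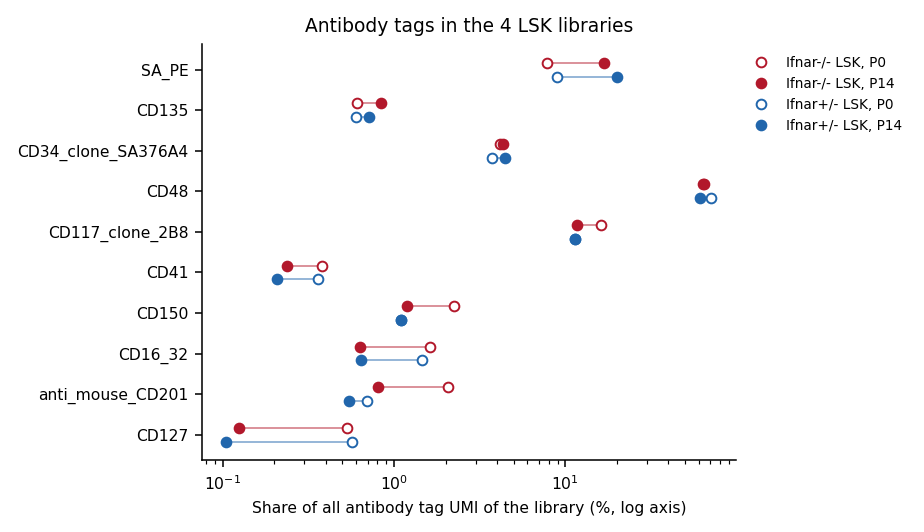
Share of all antibody tag UMI (%, log axis) of the 10 tags at P0 (open) and P14 (filled) in Ifnar-/- LSK (red) and Ifnar+/- LSK (blue). CD127, CD16_32, CD41 and SA_PE move the same way in both genotypes, and the CD150 share is 2.23% and 1.19% in Ifnar-/- but 1.10% and 1.09% in Ifnar+/-.

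Among liver cell genes, 10 of 13 measured were at least 2-fold lower at P14, beside 7.02% of all genes. Summed over the 17 genes of the list the level was 45.8 CPM at P0 and 48.7 at P14, of which Trf made up 29.3 and 39.5 and Afp 5.98 and 7.48. None of the 17 was at 0 at P0, and 9 were at P14. Albumin (Alb) had 331 UMI in 7.40% of P0 cells and 0 UMI at P14, at least 101-fold lower against a floor of 3 counts. Alb was at 6.997 CPM in the free RNA of P0, above its 2.43 CPM in the cells, and at 0 in that of P14. The labels do not give the organ at either age, so age and tissue of origin cannot be told apart here.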

How the data were processed

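Counts deposited by the authors were raw UMI per feature and barcode. They covered 32285 genes and 10 antibody tags, and no barcodes had been removed as empty. The matrices came from Cell Ranger 4 per the file headers, while the submitters' processing notes name Cell Ranger 6.0.1 and mm10. For each gene the UMI of all kept cells in a library were added up and divided by the gene UMI of these cells (CPM), and log2 ratios were taken after adding 0.5 counts. Genes needed 50 UMI in 1 library, and list members 20 UMI over both. Shares of all genes given beside list counts are over the first set, so some list members lie outside it. Ratio intervals are exact conditional binomial, CPM intervals exact Poisson and shares Clopper-Pearson (95%); the interval of a difference of shares is Newcombe's from Wilson bounds. Shares of cells were taken after thinning each cell to 7500 UMI. A gene with 0 UMI was read against a floor of 3 counts.

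Members, 25 gene lists and alternatives were chosen with earlier results of these data known. Named were the 15 higher and 15 lower genes with the largest ratios at 10 CPM or more, the 10 with the largest CPM differences each way, up to 6 most abundant members of each list plus members 2-fold apart, and the receptor, tag and fetal genes; Xist, Tsix, Y-linked, mitochondrial, ribosomal protein, Gm and Rik genes were left out. Rian and Id3 entered by their ratios. A result on a withheld item is not reported here. Gene positions came from a RefSeq table of GRCm38, matched by symbol for 26335 genes. Doublets were kept. Scrublet (scanpy 1.11.5) marked 0.288% of P0 and 0% of P14 cells by its own threshold, so an alternative removed 96 and 154 cells by score at 0.8% per 1000 cells. TMM factors came from edgeR 4.0.16. The summing and ratio step was tested on simulated counts. Alternatives covered cell depth, mitochondrial UMI, doublets, the deepest cells, scaling, pseudocount, gene minimum, fold, cell weighting and free RNA. With 1 library per group no replicate could be left out.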

Additional observations from a re-analysis of the deposited data

Results flagged for a closer look

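Each of these differences between genotypes rests on 1 library per group and was not tested. Interferon list members had a median log2 ratio of 0.30 in Ifnar-/- LSK and -0.58 in Ifnar+/- LSK. The 7 MHC class II genes had medians of 0.45 and -0.82, and the Ifnar-/- median was -0.20 within Flt3 cells and 1.05 within cells with Procr and Mecom. Interferon list genes were at least 2-fold higher at P14 in Ifnar-/- LSK and lower in Ifnar+/- LSK: Ifit1 (1.26 and -2.004), Ifi27l2a (1.64 and -1.38), Rtp4 (1.502 and -1.91), Zbp1 (1.46 and -1.23) and Phf11d (2.45 and -1.47). Among the genes of mast cells, basophils or neutrophils at least 2-fold apart in both pairs, these were lower at P14 in Ifnar-/- LSK and higher in Ifnar+/- LSK: Mcpt4 (-7.08 and 3.76), Prss34 (-8.42 and 5.59) and Stfa1 (-4.35 and 3.804), and in P0 Ifnar-/- LSK 5 cells held 94.0%, 52.2% and 96.5% of their UMI. Cpa3 (-1.84 and 0.69) and Elane (-1.38 and 0.81) had the same signs with a smaller Ifnar+/- ratio, but Cpa3 was at 2.12 in Ifnar-/- LSK without the mast-gene and granule-gene cells, and Elane at 4.15 within its Flt3 cells. Other genes of these cells were higher at P14 in both genotypes, among them Mcpt8 (3.32 and 3.05), Prg2 (1.26 and 2.28), S100a9 (2.88 and 5.08) and Camp (6.02 and 3.75). The Ifnar-/- ratio of Prss34 rests on 186 UMI at P0 against 0, so it depends on the 0.5 counts added. Barcodes of the P0 Ifnar-/- LSK library with 2000 to 7500 gene UMI, which enter no comparison, held 7673 UMI of Cma1 and Tpsb2, and those of the P14 library held 0. Such barcodes held 323 and 320 UMI of the pair in Ifnar+/- LSK at P0 and P14, and 10433 in P0 Ifnar-/- LK.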

How the results depend on the processing

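Adding 5 CPM left 49 higher and 117 lower genes, the 1.5-fold threshold gave 946 and 1781, a minimum of 10 UMI 668 and 1641, and of 200 UMI 223 and 521. The fetal programme median was -2.04 with at most 5% mitochondrial UMI, -1.08 with 5 CPM added and -2.42 with each cell weighted equally. The lymphoid priming median was 0.261 under TMM, 0.262 under median-of-ratios, 0.107 with 5 CPM added and 0.261 with cells weighted equally, and the stem cell median -0.413 with 5 CPM added. The G2M difference in percentage points was 1.38 at 15000 UMI or more, -6.69 with at most 5% mitochondrial UMI, -7.56 without thinning, -8.23 thinned to 2000 UMI and -6.02 at 5 UMI or more. With 5 CPM added the macrophage median was 0.15 (main value 2.0) and the hepatocyte median -0.0985 (main value -5.85). The number of tags 1.5-fold apart stayed within 1.5 times of 6 in each alternative run. TMM moved ratios by 0.06.

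Direction changed in the mast and eosinophil median (0.624 at 15000 UMI, 0.705 with 5% mitochondrial UMI, 1.61 without mast-gene and granule-gene cells, and 1.61 also without erythroid-gene cells) and in the log2 ratio of Cpa3 (0.0274, 0.481, 2.12 and 2.12 in the same order). Fcer1a, with 82 UMI at P0 and 0 at P14, was at 0.121 and 0.123 without those cells. With no UMI left on either side, these values come only from the 0.5 counts added and the library totals. Without the 5% deepest cells the erythroid and megakaryocyte median was 0.0143, Klf1 0.289 and Tnfaip2 0.285. The G1/S median was -0.0152 with at most 5% mitochondrial UMI. Of 2136 values of named genes under alternatives, 1657 stayed within the counting interval, 471 left it with the same direction and 8 changed direction. The values of Fcer1a are among these 8, although they measure no expression. Medians near 0 also changed sign: neutrophil and monocyte (-0.0222) was above 0 in 6 alternatives, up to 0.572 without erythroid-gene, mast-gene and granule-gene cells, NF-kB (-0.0549) at 0.00219 under median-of-ratios, adhesion and homing (-0.0809) at 0.00937 with cells weighted equally, and polycomb (0.0204) at -0.00373 without the 5% deepest cells. The cause was not tested. No paired analysis was possible because each group had 1 library.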

Other observations

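The following gene was chosen after its values were seen. Gm47283, a gene model with no entry in the RefSeq table used, had 1.38 CPM at P0 and 125 CPM at P14 in Ifnar-/- LSK, and 1.05 and 115 CPM in Ifnar-/- LK, while Ifnar+/- LSK had 128 and 110.1 CPM. Its chromosome is not given by that table, so the leaving out of Y-linked genes could not act on it. Leaving out genes that the table places on the Y chromosome, it was the only gene with at least 10 CPM that was at least 4-fold apart the same way in both Ifnar-/- fractions and within a log2 ratio of 0.5 in Ifnar+/- LSK.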
